A study of Mus musculus with 20 samples.

Results

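The genes described here are 8 genes of the contractile apparatus of smooth muscle, namely Acta2, Tagln, Cnn1, Myl9, Tpm1, Tpm2, Actg2 and Cald1. They were chosen by name, with earlier results of these data known. Every array probe annotated to 1 of these symbols was taken, and all 8 were found, on 14 of the 55681 probes of the array. After a filter on dim probes 27161 genes remained, and all 8 were among them. RNA of 10 mouse pluripotent lines had been hybridized to 20 Agilent arrays in 1 colour, with 2 arrays per line. The 7 lines of induced pluripotent stem cells (iPSCs) carry a quality grade in the labels, which do not say how it was measured. The poor lines are KH2_OSKM, Nanog-GFP OSKM#2 and Oct4-GFP OSKM#2 (n = 3), the good lines BC_2 OSKM and Nanog-GFP SNEL#3 (n = 2), and the high lines Nanog-GFP SNEL#2 and Oct4-GFP SNEL#1 (n = 2). They are set against the embryonic stem cell (ESC) lines Oct4-GFP ESCs, Nanog-GFP ESCs and KH2 ESCs (n = 3). SNEL lines were made with Sall4, Nanog, Esrrb and Lin28, and OSKM lines with Oct4, Sox2, Klf4 and Myc. All groups grew without feeder cells in 2i, a medium with inhibitors of MEK and GSK3, and none was treated. Every poor line was made with OSKM and every high line with SNEL, so grade and factors are partly confounded. Each line name is 1 line, and the labels do not say whether its 2 arrays came from separate cultures, so the line was taken as the replicate and n counts lines.

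Smooth muscle contracts when myosin pulls on filaments of actin. Acta2 encodes the vascular and Actg2 the enteric smooth muscle actin, Myl9 the regulatory light chain of the myosin, and Tpm1 and Tpm2 the tropomyosins that lie along the actin filament. Tagln (transgelin, SM22) and Cnn1 (calponin) bind actin, and Cald1 (caldesmon) restrains the myosin motor. Many of these genes are controlled by serum response factor, which binds the CArG box, together with coactivators of the myocardin family. They are also used by myofibroblasts and by cultured fibroblasts, so they mark a contractile state and not smooth muscle alone. Tpm1 and Cald1 are spliced into muscle and nonmuscle forms, and the nonmuscle forms occur in most cells.

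The promoters of Acta2 and Myl9 are shown because they were the members whose windows held a CArG box or a close relative of it, and those of Tpm1 and Tpm2 because these genes did not share the order of Acta2 over the lines. RefSeq promoter windows (GRCm38.p6, 250 bases before to 50 after the start of each gene) were available for 6 of the 8 members, with 7 windows, since Cald1 has 2 starts. No window was listed for Tagln or Actg2. Each line gives the 180 bases before the start, 5′ to 3′ on the strand of the gene, with a CArG box (CC, 6 bases of A or T, GG) or a box with 1 C or G among its inner 6 bases in capitals. The stretches lie at chr19:34255374-34255553 (Acta2, minus strand), chr2:156775284-156775463 (Myl9, plus strand), chr9:67049214-67049393 (Tpm1, minus strand) and chr4:43523555-43523734 (Tpm2, minus strand).
Acta2: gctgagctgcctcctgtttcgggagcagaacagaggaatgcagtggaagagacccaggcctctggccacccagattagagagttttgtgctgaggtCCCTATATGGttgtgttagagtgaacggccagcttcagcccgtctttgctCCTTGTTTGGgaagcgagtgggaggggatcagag
Myl9: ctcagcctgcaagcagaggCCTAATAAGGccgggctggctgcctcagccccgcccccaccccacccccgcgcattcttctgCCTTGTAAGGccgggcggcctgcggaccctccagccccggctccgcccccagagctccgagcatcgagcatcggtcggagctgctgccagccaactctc
Tpm1: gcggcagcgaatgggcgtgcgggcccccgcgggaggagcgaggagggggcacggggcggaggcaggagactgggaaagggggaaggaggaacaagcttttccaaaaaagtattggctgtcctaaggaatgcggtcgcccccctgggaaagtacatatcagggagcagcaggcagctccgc
Tpm2: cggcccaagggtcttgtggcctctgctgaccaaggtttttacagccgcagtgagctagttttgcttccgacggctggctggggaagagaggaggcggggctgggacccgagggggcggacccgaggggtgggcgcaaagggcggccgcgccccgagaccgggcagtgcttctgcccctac
The full CArG box was found in the Myl9 window alone among the 7, and in 1.6% of 32851 windows. The form with 1 inner C or G was found in the windows of Acta2 (at 2 positions) and Myl9, and in 8.5% of all windows. The muscle motif MCAT (CATTCC, either strand, no overlap with the CArG forms) was found in 3 of the 7 windows, those of Acta2, Tpm1 and the upstream Cald1 start, and in 14.7% of all windows. The windows of Cnn1 and Cald1, whose sequences are not shown, held neither CArG form. A link between a motif and the order of the lines was not tested. These matches describe letters in the windows.

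The lines carried the marks of pluripotent cells. Markers of smooth muscle were above background in part, as were those of other cell types. All 15 pluripotency genes looked at were above background on both arrays in every line. Of 11 markers of vascular smooth muscle or pericytes, 5 to 6 were above background on both arrays of poor lines, 4 and 5 of good lines, 5 in each high line and 6 in each ESC line. Smtn, Des, Mcam and Notch3 were above background on 20 of 20 arrays and Cspg4 on 19, genes that other cell types also use. Lmod1 and Rgs5 were above background on 0 of 20 arrays, Myocd on 1 and Myh11, the smooth muscle myosin heavy chain, on 8. In iPSC lines 9 to 16 of 17 cardiac or skeletal muscle markers were above background on both arrays. The same held for 4 to 5 of 7 endothelial and 6 to 10 of 12 endoderm markers. In ESC lines it held for 13 to 15, 4 and 9 to 10 of these. Between 50.1% and 58.8% of probes were above background in SNEL lines, against 61.2% to 67.7% in the remaining 7 lines, and precision is limited by how many arrays there are. The 2 arrays of a line correlated at 0.971 (KH2_OSKM) to 0.99. Levels below are log2 signals minus the 75th percentile of the array, and no level is set against that of another gene.

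Acta2 was lower in all 7 iPSC lines than in all 3 ESC lines. Its level was −3.77 in Nanog-GFP OSKM#2, −3.69 in Oct4-GFP OSKM#2 and −3.53 in KH2_OSKM, the poor lines. It was −2.97 in BC_2 OSKM and −4.11 in Nanog-GFP SNEL#3, the good lines, and −2.10 in Nanog-GFP SNEL#2 and −1.02 in Oct4-GFP SNEL#1, the high lines. In the ESC lines it was 1.57 in KH2 ESCs, −1.003 in Nanog-GFP ESCs and −0.75 in Oct4-GFP ESCs. The poor lines thus lay close together, the high lines lay nearest to the ESC lines, and KH2 ESCs stood far above all others. The arrays of Oct4-GFP SNEL#1 and Nanog-GFP ESCs overlapped, as did those of Oct4-GFP OSKM#2, Nanog-GFP OSKM#2 and Nanog-GFP SNEL#3 at the low end, so these neighbours do not differ beyond their spread. All other neighbours in the order were apart on both arrays.

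**Figure D1:**
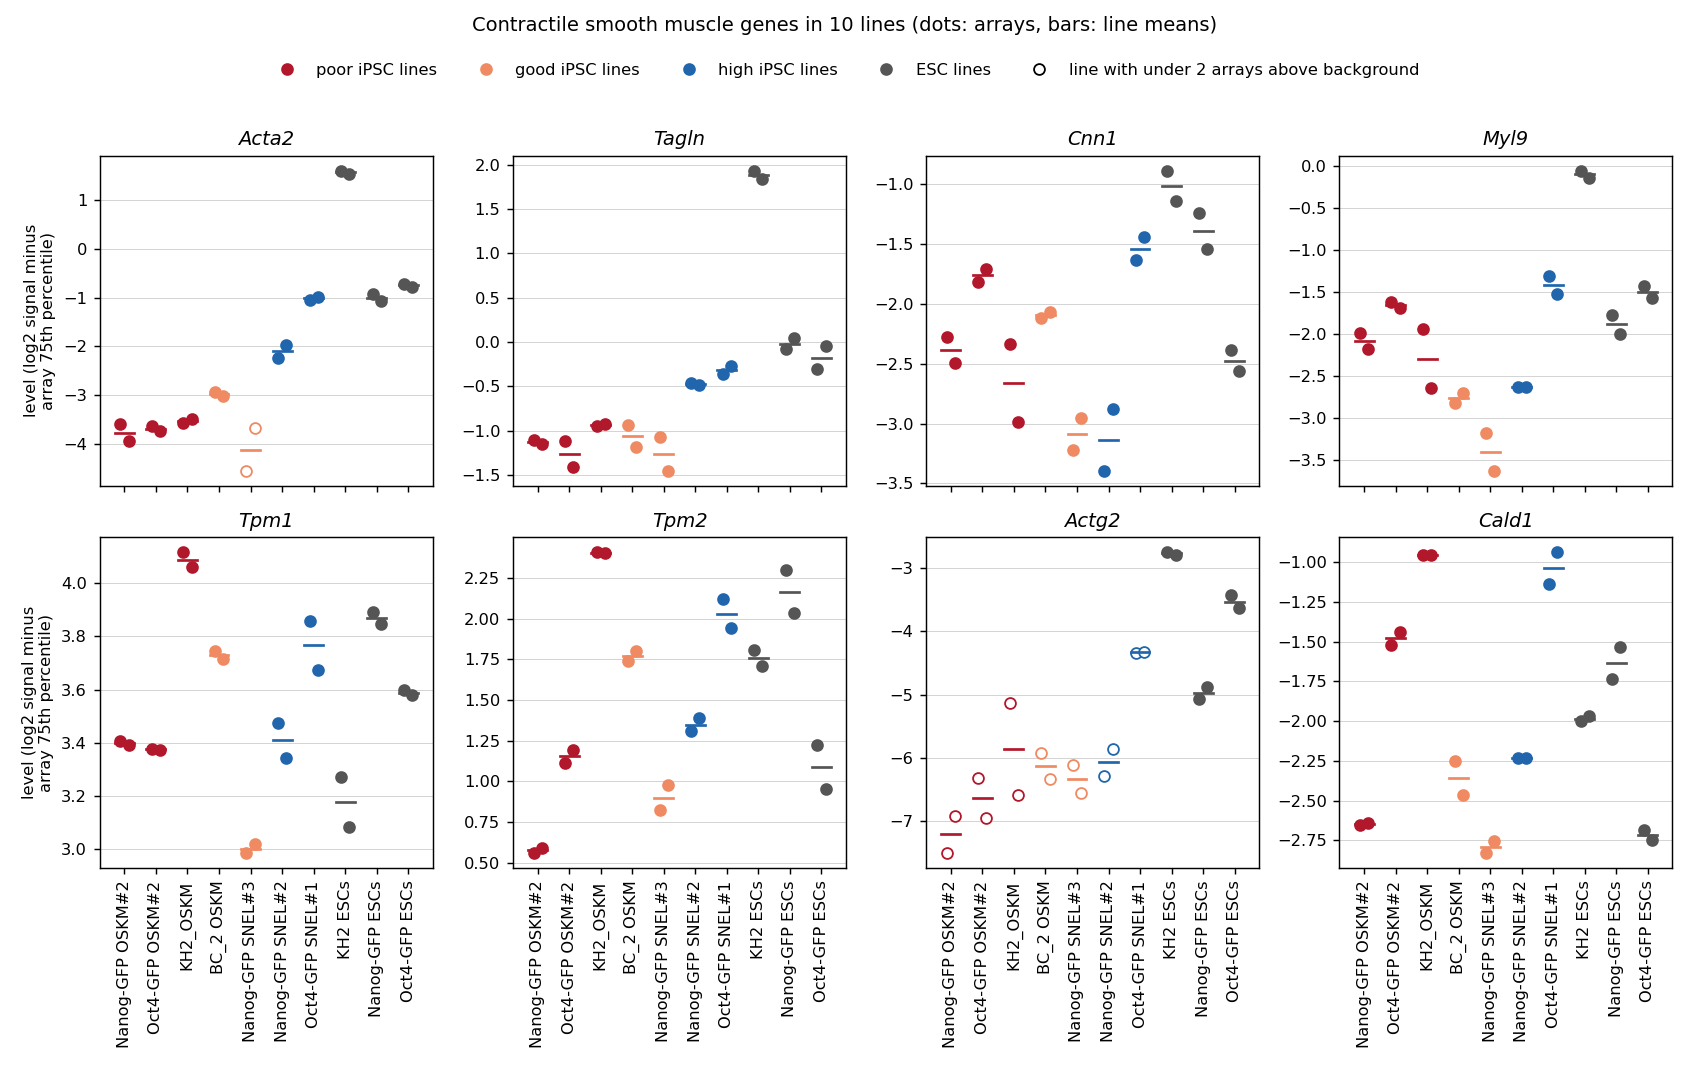
Level of each of the 8 genes (log2 signal minus the 75th percentile of the array, brightest probe of the gene) in the 10 lines, with dots for the 2 arrays of a line and bars for their mean. The line means of Acta2 and Tagln are lower in every iPSC line than in every ESC line. Arrays of Oct4-GFP SNEL#1 overlap those of Nanog-GFP ESCs for Acta2 and those of Oct4-GFP ESCs for Tagln. KH2 ESCs is highest for 5 of the 8 genes, and open dots mark lines with under 2 arrays above background.

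Set against the ESC mean of −0.06 ± 1.42 (SD, n = 3), Acta2 averaged −3.66 ± 0.12 (n = 3) in poor lines, −3.54 ± 0.81 (n = 2) in good lines and −1.56 ± 0.77 (n = 2) in high lines. The differences were −3.60 ± 0.68 (SE, 12.1-fold lower), −3.48 ± 0.75 (11.2-fold lower, with 1 of the 4 good arrays, of Nanog-GFP SNEL#3, not above background) and −1.50 ± 0.75 (2.83-fold lower). In limma's fit on the line means their adjusted p values over all genes were 0.202, 0.559 and 0.866, so none passed. The large spread of the ESC lines came with KH2 ESCs, without which the poor lines differed by −2.79 (limma adjusted p = 0.417) and the high lines by −0.68. When all 20 arrays entered the fit as single values, with line as a random block, Acta2 passed as lower in poor lines (limma adjusted p = 0.00558) and in good lines (limma adjusted p = 0.0361). With the slide added, the value was 0.0453 in poor lines, and good lines no longer passed. The labels do not call the 2 arrays of a line separate cultures, so these p values can be too small. With line as a random block, the fit called 39 of all genes in poor and 9 in good lines. The Acta2 probe was printed at 10 spots of each array, whose log2 signals had an SD of 0.067 to 0.093 on the ESC arrays and 0.304 to 1.19 on the poor and good arrays, where the signal was dim. The probe lies at chr19:34316060-34316119 (mm9, minus strand), and its place within the transcript was not analysed here.

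Actg2, the enteric smooth muscle actin, was measurable mainly in ESC lines. Its probe was above background on 0 of 6 poor arrays, 0 of 4 good arrays and 1 of 4 high arrays (of Oct4-GFP SNEL#1), against 6 of 6 ESC arrays. Its levels were −7.21, −6.62 and −5.85 in poor lines, −6.13 and −6.33 in good lines and −6.07 and −4.33 in high lines, against −2.78 in KH2 ESCs, −4.98 in Nanog-GFP ESCs and −3.53 in Oct4-GFP ESCs. Actg2 was at least 4.04-fold lower in poor lines (limma adjusted p = 0.214) and at least 2.56-fold lower in good lines (limma adjusted p = 0.596). These bounds compare the ESC mean with, on each dim array, the dimmest signal still well above background or the probe's own signal, whichever is higher. That mean includes KH2 ESCs, the highest line, and the bounds were not taken without it. The measured differences were −2.799 in poor and −2.465 in good lines, and −2.307 and −1.973 without KH2 ESCs. High lines had 1 of 4 arrays above background, so no size is given for their difference from ESC lines (limma adjusted p = 0.866). Actg2 passed the filter mainly through the ESC arrays, so a lower value elsewhere was favoured by that choice. Where groups are set against ESC lines, counts that include it are also given without it. Counts by origin include it. Actins are close relatives in sequence, and cross-hybridization between them was not tested.

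Tagln followed Acta2 at a smaller scale. It was −0.93, −1.13 and −1.26 in the poor lines KH2_OSKM, Nanog-GFP OSKM#2 and Oct4-GFP OSKM#2, −1.06 and −1.26 in the good lines BC_2 OSKM and Nanog-GFP SNEL#3, and −0.47 and −0.32 in the high lines Nanog-GFP SNEL#2 and Oct4-GFP SNEL#1. The ESC lines had 1.88 in KH2 ESCs, −0.02 in Nanog-GFP ESCs and −0.17 in Oct4-GFP ESCs. The mean of every iPSC line was below that of every ESC line, but the arrays of Oct4-GFP SNEL#1 and Oct4-GFP ESCs overlapped, so these neighbours do not differ beyond their spread. KH2 ESCs again stood apart. The differences from ESC lines were −1.67 ± 0.49 (SE, poor), −1.72 ± 0.55 (good) and −0.96 ± 0.55 (high), with limma adjusted p values of 0.304, 0.644 and 0.887. Without KH2 ESCs they were −1.01, −1.06 and −0.30. For all 7 iPSC lines together the difference was −1.48 ± 0.42 (adjusted p = 0.254; −0.82 without KH2 ESCs), and for Acta2 it was −2.97 ± 0.74 (adjusted p = 0.221).

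Myl9, the regulatory myosin light chain, was below every ESC line in both good lines, as 14.3% of all genes were. It was −2.76 in BC_2 OSKM and −3.40 in Nanog-GFP SNEL#3, the good lines, below all 3 ESC lines (−0.10 in KH2 ESCs, −1.88 in Nanog-GFP ESCs and −1.50 in Oct4-GFP ESCs). The poor lines had −2.08, −1.65 and −2.29 and the high lines −2.62 and −1.42, and both groups overlapped the ESC lines. The high line Nanog-GFP SNEL#2 lay only 0.136 above the good line BC_2 OSKM, so a low level was not particular to good lines. Good lines differed from ESC lines by −1.92 ± 0.56 (SE, limma adjusted p = 0.592), poor lines by −0.85 ± 0.51 and high lines by −0.86 ± 0.56. Without KH2 ESCs these differences were −1.39, −0.32 and −0.33. Cnn1, the calponin gene, overlapped in every comparison. Its levels ran from −2.67 to −1.76 in poor lines, from −3.09 to −2.10 in good lines and from −3.14 to −1.54 in high lines, against −2.48 to −1.02 in ESC lines, and its differences were −0.64 ± 0.54, −0.96 ± 0.60 and −0.71 ± 0.60 (SE).

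The tropomyosins and caldesmon did not share this order. Tpm1 was highest in the poor line KH2_OSKM (4.09) and lowest in the good line Nanog-GFP SNEL#3 (3.00), with ESC lines between, at 3.18 in KH2 ESCs, 3.87 in Nanog-GFP ESCs and 3.59 in Oct4-GFP ESCs. Its differences from ESC lines were 0.08 ± 0.30 (poor), −0.18 ± 0.33 (good) and 0.04 ± 0.33 (high, SE). Tpm2 was also highest in KH2_OSKM (2.40), lowest in the poor line Nanog-GFP OSKM#2 (0.58), and 1.09, 2.16 and 1.76 in Oct4-GFP ESCs, Nanog-GFP ESCs and KH2 ESCs. It differed by −0.29 ± 0.51, −0.34 ± 0.57 and 0.02 ± 0.57 (SE) in poor, good and high lines. Cald1 was −0.96 in KH2_OSKM and −1.04 in the high line Oct4-GFP SNEL#1, its highest levels, and lowest in Nanog-GFP SNEL#3 (−2.79), with −2.72, −1.64 and −1.98 in Oct4-GFP ESCs, Nanog-GFP ESCs and KH2 ESCs. Its differences were 0.42 ± 0.51 (poor), −0.46 ± 0.57 (good) and 0.48 ± 0.57 (high, SE). All groups overlapped for these 3 genes, and each difference was smaller than its error. The spread over lines was larger than that between arrays, since the 2 arrays of a line differed by at most 0.27 for each of these genes while the lines spanned 1.09 (Tpm1), 1.83 (Tpm2) and 1.84 (Cald1).

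**Figure D2:**
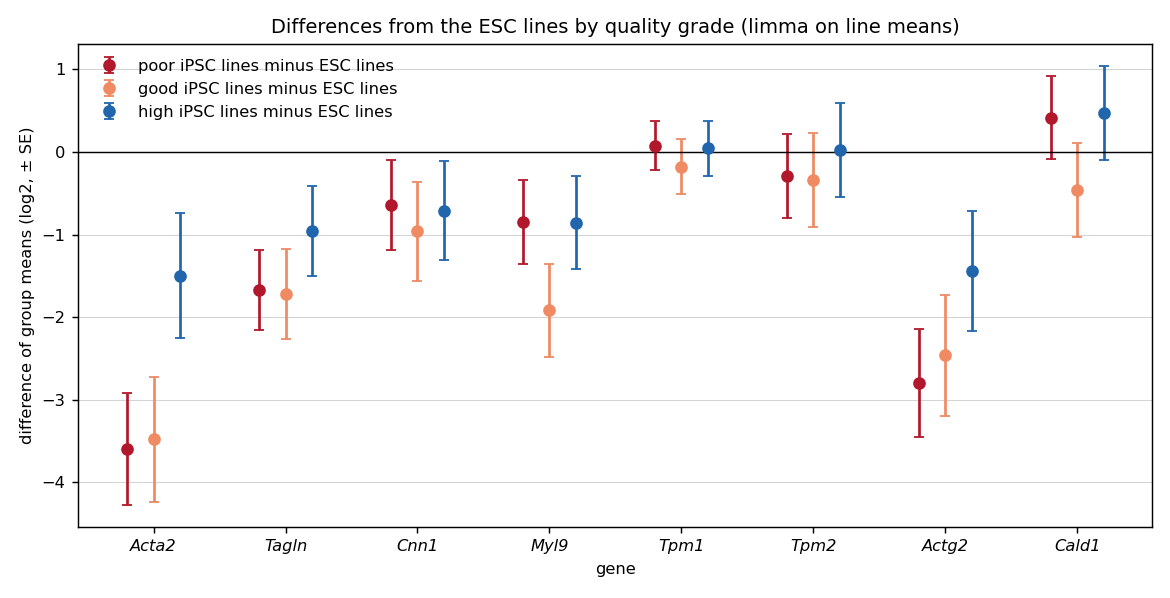
Difference of the group means of poor, good and high iPSC lines from the ESC lines (log2, dots) with the standard error of limma's fit (bars) for each gene. The 3 differences of a gene share the same ESC lines. Acta2 lies at −3.60, −3.48 and −1.50, while Tpm1, Tpm2 and Cald1 lie within 0.48 of 0, and the Actg2 values rest on iPSC arrays of which 1 of 14 was above background.

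Set against ESC lines, 6 of the 8 genes were lower and 2 higher in poor lines (5 of 7 lower without Actg2). The median difference was −0.74 (−0.64 without Actg2), against a median of −0.03 over all 27161 genes. In good lines 8 were lower (7 of 7 without Actg2), with a median of −1.34 (−0.96 without Actg2), against −0.06 over all genes. In high lines 5 were lower and 3 higher (4 of 7 lower without Actg2), with a median of −0.78 (−0.71 without Actg2), against −0.07 over all genes. Of all genes, 53.8% were lower in poor, 57.9% in good and 59.7% in high lines. These comparisons share the ESC lines and are not independent of each other. With KH2 ESCs left out, the medians were −0.33 in poor, −0.86 in good and −0.31 in high lines. RNA was taken from whole cultures, so fewer cells with these transcripts and less RNA per cell cannot be told apart.

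Limma on the line means called 0 of the 8 genes in poor, good and high lines against ESC lines at an adjusted p under 0.05, and 0% of all genes in each of these comparisons. At an unadjusted p under 0.05, 3 of the 8 were lower in poor lines (Acta2, Tagln and Actg2, 2 of 7 without Actg2), where 6% of all genes were. In good lines 4 were lower (those and Myl9, 3 of 7 without Actg2), where 5.11% of all genes were. In high lines 0 were, where 4.39% of all genes were. The fits on the 20 arrays called Acta2 alone, as given above. Lines of the groups did not overlap, with the iPSC lines lower, for 3 of the 8 genes in poor lines (2 of 7 without Actg2), where 10.7% of all genes behaved so. The same held for 4 of the 8 in good lines (3 of 7 without Actg2), against 14.3% of all genes, and for 2 of the 8 (Acta2 and Tagln) in high lines, against 15.5%. For all 7 iPSC lines against the 3 ESC lines it held for the line means of Acta2 and Tagln, 2 of the 8, against 3.55% of all genes. For both genes the arrays of the nearest iPSC and ESC lines overlapped. In that comparison limma called 0 of the 8 and 0% of all genes, with 4 of the 8 lower at an unadjusted p under 0.05 (Acta2, Tagln, Actg2 and Myl9, 3 of 7 without Actg2), against 7.23% of all genes. Actg2 was not well above background on any poor or good array, so its place in these counts rests on readings that did not pass as above background. The members and the lists below were chosen with earlier results of these data known. Their counts beside the shares of all genes are thus a description and no test of the set.

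The quality grade and the factor set were also compared within the iPSC lines. Good and high lines together had a higher mean than poor lines for Acta2, at −2.55 ± 1.31 (SD, n = 4) against −3.66 ± 0.12 (n = 3), a difference of 1.11 ± 0.63 (SE, limma adjusted p = 0.925), but the lines overlapped. SNEL lines averaged −2.41 ± 1.57 (n = 3) and OSKM lines −3.49 ± 0.36 (n = 4), a difference of 1.08 ± 0.78 (SE, limma adjusted p = 0.661). That difference was 0.38 without Oct4-GFP SNEL#1 and 1.93 without Nanog-GFP SNEL#3. The medians over the 8 genes were −0.01 (good and high against poor) and −0.11 (SNEL against OSKM), against −0.04 and −0.02 over all genes. In both comparisons 4 to 5 of the genes were lower and the lines overlapped for every member, while lines did not overlap for 5.83% (good and high against poor) and 7.68% (SNEL against OSKM) of all genes. Limma called 0 of the 8 in either comparison, against 0% (good and high against poor) and 0.00736% (SNEL against OSKM) of all genes. At an unadjusted p under 0.05 it was 0 of the 8 in either, against 5.16% and 9.4% of all genes. Nor did the fits on the 20 arrays call a member there.

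Most fibroblast markers had lower levels in iPSC lines, as Acta2 and Tagln did. Of 14 that passed the filter, 11 were lower and 3 higher in poor lines, and 12 lower and 2 higher in good and in high lines, with median differences from ESC lines of −2.09, −1.75 and −0.72. Of all genes, 53.8%, 57.9% and 59.7% were lower in poor, good and high lines. Limma called 0 of them, and at an unadjusted p under 0.05 8 were lower in poor, 8 in good and 0 in high lines, where 6%, 5.11% and 4.39% of all genes were. Of 15 such genes, 7 to 10 were above background on both arrays of poor lines, 4 and 10 of good lines and 8 and 11 of high lines, against 13 to 14 in ESC lines. Their median level was −5.21 to −3.77 in poor lines, −5.33 to −3.13 in good lines and −3.18 to −1.34 in high lines, against −2.59 to −1.33 in ESC lines. Their summed signal, which is carried by Fn1 and Sparc, 2 genes that pluripotent cultures also express, was 288 to 467 in poor, 298 to 612 in good and 304 to 416 in high lines, against 407 to 410 times the 75th percentile in ESC lines. The single genes ranged widely. Col1a2 and Thy1 were above background on 14 of 14 iPSC arrays, Col1a1 and Pdgfrb on 12, Col3a1, Col6a1 and Twist1 on 11, Pdgfra on 8, Dcn on 4, Prrx1 on 3 and Postn on 2, against 6 of 6 ESC arrays for each. Lum was above background on 1 of 14 iPSC arrays, against 4 of 6 ESC arrays, and Twist2 on 2 of 14, against 1 of 6. Lum, Postn and Prrx1 passed the filter mainly through the ESC arrays, so a lower value in iPSC lines was favoured for them. They are included in the counts and medians of the 14 genes, which were not taken without them. The part of such cells in the levels of Acta2, Tagln and Actg2 was not tested. By the fibroblast median the order of the lines was not the same as for Acta2. That median was lower in KH2 ESCs (−2.59) than in Oct4-GFP ESCs (−2.43), and in Oct4-GFP SNEL#1 (−1.34) it was above both. By fibroblast genes above background on both arrays, KH2 ESCs came first, as for Acta2. It had 14 of 15, against 13 in Nanog-GFP ESCs and in Oct4-GFP ESCs and 11 in Oct4-GFP SNEL#1.

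Within each origin, iPSC lines could be set against 1 ESC line that carries the same name. Acta2, Tagln and Actg2 were lower in 6 of 6 such lines. For Acta2 the differences were −2.77, −3.11 and −1.10 for Nanog-GFP OSKM#2, Nanog-GFP SNEL#3 and Nanog-GFP SNEL#2 against Nanog-GFP ESCs. They were −2.94 and −0.27 for Oct4-GFP OSKM#2 and Oct4-GFP SNEL#1 against Oct4-GFP ESCs, and −5.10 for KH2_OSKM against KH2 ESCs. Myl9 was lower in 5 of 6 lines, Cnn1 and Tpm1 in 4, and Tpm2 and Cald1 in 3. By origin, the line means of all 8 genes were lower in each of the 3 Nanog-GFP iPSC lines than in Nanog-GFP ESCs, which these lines share. For Myl9, however, the arrays of Nanog-GFP OSKM#2 overlapped those of Nanog-GFP ESCs. Actg2 was above background on 0 arrays of these 3 lines, and the counts and medians by origin include it. The median differences were −1.06, −1.31 and −0.78. In Oct4-GFP OSKM#2 5 were lower and 3 higher, in Oct4-GFP SNEL#1 3 were lower and 5 higher, and in KH2_OSKM 5 were lower and 3 higher. Cald1 was higher by 1.24 in Oct4-GFP OSKM#2, by 1.68 in Oct4-GFP SNEL#1 and by 1.03 in KH2_OSKM than in their ESC lines, but differed by −1.01, −1.16 and −0.60 in the Nanog-GFP lines. Each origin has 1 ESC line, so these differences have no replicate check on the ESC side and carry no test.

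**Figure D3:**
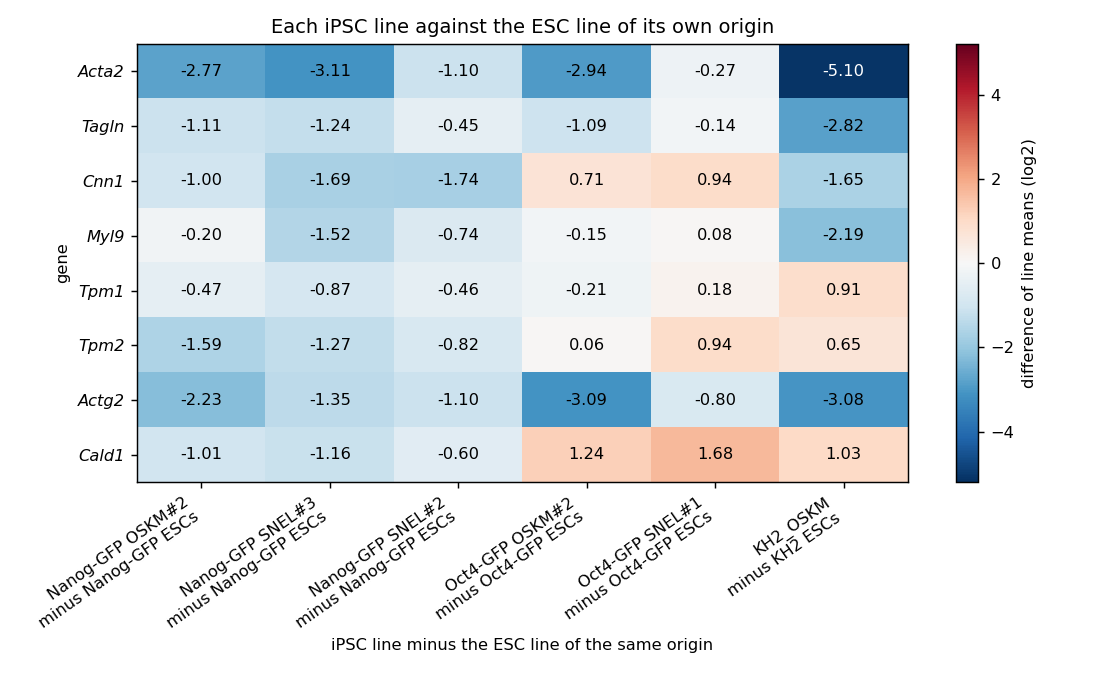
Difference of the line means (log2) between each iPSC line and the ESC line of the same origin, for each gene. Acta2, Tagln and Actg2 are below 0 in all 6 columns, and Cald1 is below 0 in the 3 Nanog-GFP columns and above 0 in the other 3.

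Likeness over the 10 lines is given as a description of lines that share groups and array scaling. Acta2 had a Pearson r of 0.95 with Tagln, 0.93 with Actg2, 0.80 with Myl9 and 0.64 with Cnn1 (n = 10 lines). The values with Actg2 rest on readings not well above background in 6 of the 7 iPSC lines. Tpm2 had an r of 0.73 with Tpm1 and 0.77 with Cald1, and Tpm1 and Cald1 had 0.62. Between Tpm1, Tpm2 or Cald1 and the other 5 genes the values ran from −0.13 (Tagln with Tpm1) to 0.43 (Cnn1 with Cald1). KH2 ESCs had the highest level of 5 of the 8 genes, and without it (n = 9 lines) Acta2 kept an r of 0.97 with Tagln and 0.88 with Actg2. The r of Acta2 with Myl9 was then 0.59, with Cnn1 0.42 and with Tpm1 0.42. Cnn1 had 0.68 with Myl9, 0.51 with Cald1, 0.46 with Tpm1, 0.33 with Tagln and 0.29 with Actg2. Without that line Cnn1 was thus closest to Myl9, and no closer to Acta2 and Tagln than to Cald1. Tpm1 then had 0.41 (Actg2) to 0.46 (Cnn1) with the 5 genes Acta2, Tagln, Actg2, Myl9 and Cnn1. Its low values with them over 10 lines thus depended on KH2 ESCs.

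**Figure D4:**
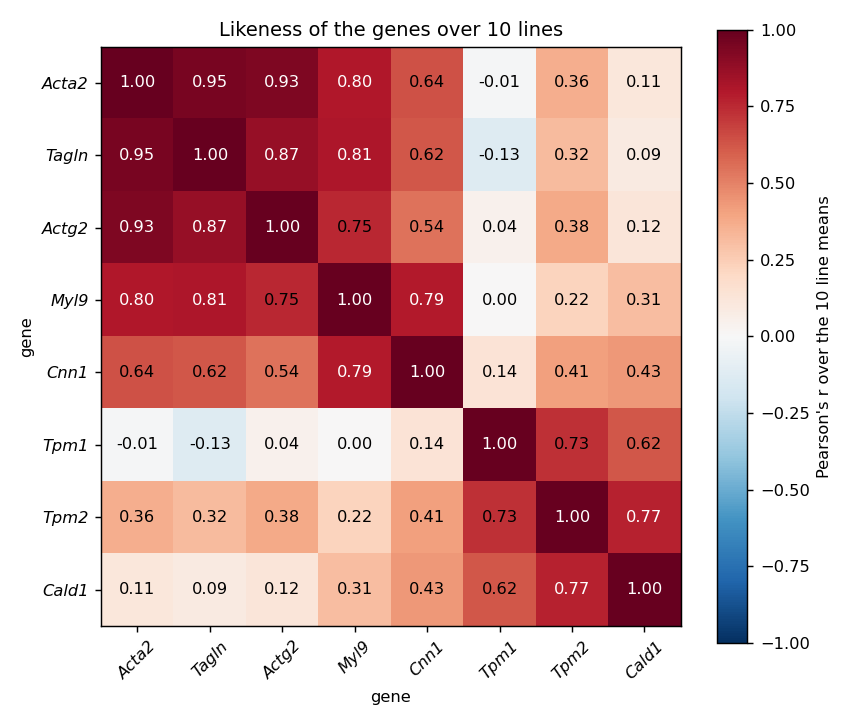
Pearson's r between the line means of each pair of genes over the 10 lines (cells, with their values). Acta2, Tagln, Actg2, Myl9 and Cnn1 have values of 0.54 to 0.95 with each other, and Tpm1, Tpm2 and Cald1 have values of 0.62 to 0.77.

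Outside the 8 genes, the levels most like the mean of the members were those of Csf1, a growth factor of macrophages (r = 0.968), Cd248, a receptor of stromal cells and pericytes (0.936), Ccl2, a chemokine (0.921), Gm3307 (0.938), Gm6788 (0.935), Gm7599 (0.919) and 4 noncoding probes named by position (0.935 to 0.954, n = 10 lines). Most like Acta2 alone were Ccn5, a matricellular protein known from smooth muscle (r = 0.973), Gm6788 (0.95), Gm4862 (0.945), the matrix protein gene Thbs1 (0.943) and the carbonic anhydrase gene Car4 (0.941). Csf1, Ccl2, Gm3307, Ccn5 and Thbs1 were dim in iPSC lines, above background on 8, 8, 8, 5 and 5 of 14 iPSC arrays, against 6 of 6 ESC arrays each.

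Several of the members have more than 1 probe, and for Tpm1 some of them disagreed. The 5 Tpm1 probes are annotated to transcript variants 1 (A_55_P2187038 and A_55_P2187043), 2 (A_55_P2032192), 5 (A_55_P2078680) and 9 (A_55_P2187053). Relative to its own mean over the lines, the brightest probe of variant 1 was 0.55 higher in KH2_OSKM and 0.36 lower in KH2 ESCs, whose other variant 1 probe gave 0.57 and −0.42. In KH2_OSKM and KH2 ESCs the variant 2 probe gave 0.16 and 0.28, and the variant 9 probe −0.20 and 0.15. In Nanog-GFP ESCs the variant 1 probes were at 0.33 and 0.33 and the variant 2 probe at −0.38. Over the 10 lines both variant 1 probes had an r of 1 with each other (rounded), 0.66 and 0.65 with the variant 5 probe, −0.41 and −0.42 with the variant 2 probe and −0.59 and −0.57 with the variant 9 probe. The variant 5 probe gave 0.27 in KH2_OSKM and −0.18 in KH2 ESCs, the same sides as variant 1. The variant 2, 5 and 9 probes spanned less over the lines (SD 0.20, 0.19 and 0.12, against 0.33 and 0.35 for variant 1), with a median difference between the 2 arrays of a line of 0.053 to 0.105. The 2 probes of Tpm2 and the 2 probes of Cald1 each had an r of 0.99. The Tpm1 probes lie between chr9:66871166-66871225 and chr9:66880274-66880333 (mm9, minus strand), and which exons they cover was not analysed here.

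**Figure D5:**
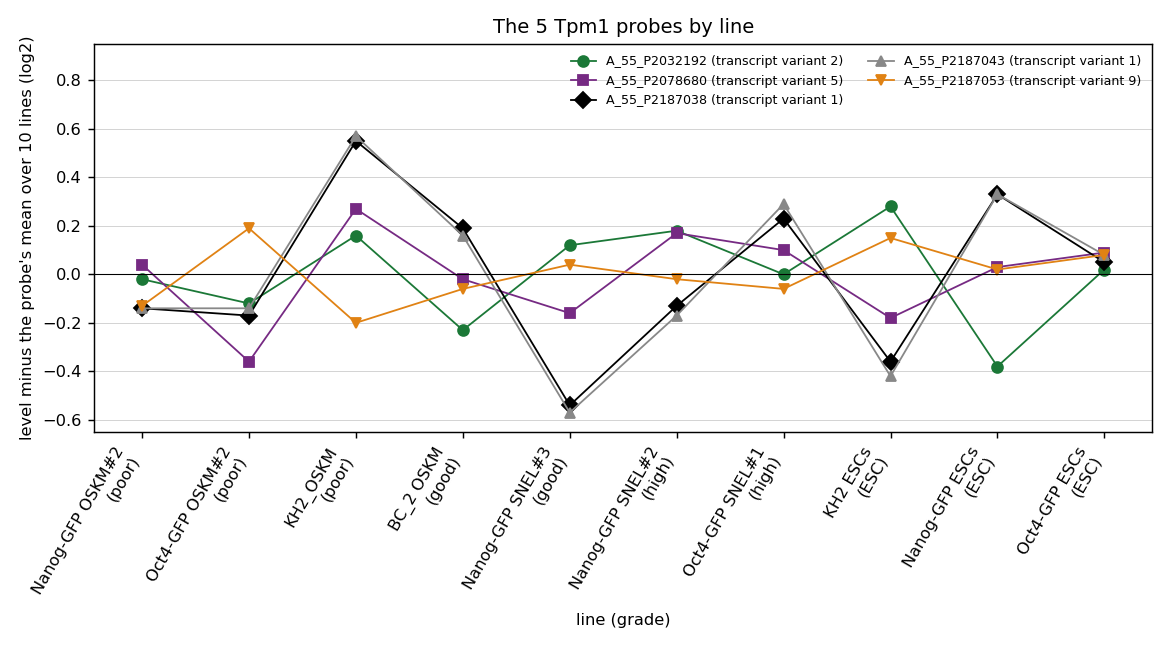
Level of each of the 5 Tpm1 probes in the 10 lines minus the mean of that probe over the lines (log2), with 1 marker shape per probe. The variant 1 probes run together and are highest in KH2_OSKM (0.55 and 0.57), while the variant 2 probe is lowest in Nanog-GFP ESCs (−0.38), where the variant 1 probes are high (0.33).

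Differences of the other genes of the apparatus went both ways, and they were not tested as a set. Of 33 contractile and cytoskeletal partners, 30 passed the filter, and limma called 0 of them in any of the 6 comparisons. Their median differences from ESC lines were −0.01 in poor, −0.05 in good and 0.05 in high lines, with 16, 16 and 12 of the 30 lower. Over all genes the medians were −0.03, −0.06 and −0.07, and 53.8%, 57.9% and 59.7% were lower. At an unadjusted p under 0.05, 2 of the 30 were higher in poor lines, where 3.75% of all genes were. In high lines 1 was higher, in all iPSC lines together 2 were higher, and in SNEL against OSKM lines 2 were lower. Of all 27161 genes, 1601, 2586 and 2552 passed that threshold there in either direction. The partners higher in poor lines were the actin-binding Synpo2 (1.29 ± 0.32, SE, limma adjusted p = 0.24) and the myosin light chain kinase gene Mylk (1.06 ± 0.31, limma adjusted p = 0.302). Mylk was dim, above background on 3 of 6 poor and 1 of 6 ESC arrays, and Synpo2 on 6 of 6 and 2 of 6.

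Of 21 regulators of these genes (serum response factor, its coactivators and other signalling routes that act on them), 18 passed the filter and 0 were called in any comparison. Their medians were −0.11 in poor, −0.16 in good and 0.02 in high lines against ESC lines, with 14, 14 and 8 of the 18 lower. Over all genes the medians were −0.03, −0.06 and −0.07, and 53.8%, 57.9% and 59.7% were lower. At an unadjusted p under 0.05 in limma, 0 regulators were lower in these comparisons. In good lines 1 was higher, where 1698 of 27161 genes passed in either direction. Smad7, an inhibitor of TGF-beta signalling, was 1.56 in SNEL and 0.33 in OSKM lines, a difference of 1.23 ± 0.22 (SE, limma adjusted p = 0.458). Of 14 target genes of serum response factor, YAP and TGF-beta, 13 passed the filter and 0 were called in any comparison. Their medians were 0.10, −0.11 and 0.51 in poor, good and high lines. At an unadjusted p under 0.05 in limma, 1 target was lower in poor and 2 in good lines, where 6% and 5.11% of all genes were. In high lines 1 was higher, where 1601 of 27161 genes passed in either direction. Thbs1, a target of TGF-beta, was above background on 0 of 6 poor arrays, against 6 of 6 ESC arrays, and was at least 22.4-fold lower in poor lines (limma adjusted p = 0.202). The matricellular gene Ctgf was 3.77 ± 0.46 in high lines and 2.55 ± 0.29 in ESC lines, a difference of 1.21 ± 0.50 (SE, limma adjusted p = 0.846).

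Of the 3 slides, slides 1 and 2 held poor, good, high and ESC arrays. Slide 3 held the second arrays of the ESC lines and of Oct4-GFP SNEL#1, and no poor or good array. The ESC array of slide 1 was KH2 ESCs and those of slide 2 were Oct4-GFP ESCs and Nanog-GFP ESCs, so values within a slide also differ by ESC line. Of the high lines slide 2 held Nanog-GFP SNEL#2 only, so its values for high and for SNEL lines are without Oct4-GFP SNEL#1. For Acta2 the differences within slide 1 were −5.21 (poor), −5.34 (good) and −3.24 (high), and within slide 2 they were −2.89, −2.51 and −1.15. The median differences over the members were −1.52, −2.36 and −1.77 within slide 1 and −0.58, −0.91 and −0.72 within slide 2. For all iPSC lines against ESC lines, Acta2 differed by −4.68 within slide 1 and −2.48 within slide 2. Within slides 1 and 2, Acta2 differed by 0.91 and 1.06 for good and high against poor lines and by 0.82 and 0.72 for SNEL against OSKM lines.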

How the data were processed

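Total RNA of 10 mouse lines (RNeasy columns, 300 ng per array, per the labels) was measured on 20 one-colour Cy3 arrays of 3 slides. Per the file headers, the deposited intensity of each spot is the background-subtracted and detrended signal of Agilent Feature Extraction, with coordinates on mm9. Log2 values made by the authors fill a further deposited table; its column medians run from 6.44 to 6.45, and on 3 arrays compared its order matched the raw median signal (Spearman 1, rounded), so its normalization beyond that is not known. The submitters' processing notes name limma.

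Log2 intensities were averaged over the spots of a probe (outlier spots left out) and scaled by the 75th percentile of the array. The filter kept 38753 of 55681 probes, those well above background on 4 or more of the 20 arrays, and the brightest probe stood for a gene. Of all probes, 26413 were named through RefSeq. Per array 48.9% to 77.2% of probes were well above background and 0 were saturated. The 2 arrays of a line were averaged, and limma 3.58.1 (R 4.3.3) was fitted to the 10 lines with Benjamini-Hochberg adjustment over 27161 genes and a threshold of 0.05. Models held 4 grades, 3 factor groups or 2 groups (iPSC and ESC). Where the labels name no separate cultures, p values measure only the spread between these lines. Tested alternatives were other filters, scalings and background corrections, the authors' value table, the mean of all probes, fits on the 20 arrays (line as a random block, correlation from every 10th gene) with slide or replicate number, single slides, and each line left out. The fit was tested on simulated data. All 8 members were named, pathway genes by the smallest p (at most 4 per list), and similar genes by r (10 and 5). The members and lists were chosen with earlier results of these data known. Figures were drawn with matplotlib.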

Additional observations from a re-analysis of the deposited data

Results flagged for a closer look

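For 3 of the 8 genes, iPSC lines lay on opposite sides of the ESC line of their own origin in the Nanog-GFP and Oct4-GFP origins, with the means of all 3 Nanog-GFP lines lower and those of both Oct4-GFP lines higher, although for Tpm2 Oct4-GFP OSKM#2 was higher by 0.06 only and its arrays overlapped those of Oct4-GFP ESCs. The mean iPSC minus ESC difference of Cnn1 was −1.48 in Nanog-GFP lines and 0.82 in Oct4-GFP lines, so the origins differed by −2.30. For Tpm2 it was −1.23 and 0.50 in these origins, a gap of −1.73, and for Cald1 it was −0.92 and 1.46, a gap of −2.38. The difference between the origins was not tested, since each has 1 ESC line.

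Actg2 in Oct4-GFP SNEL#1 (−4.33) lay far from the other 3 good and high lines, with 0.87 of their whole range between it and the nearest. Those 3 lines were above background on 0 arrays and Oct4-GFP SNEL#1 on 1 of 2, so the gap is measured to readings that were not well above background. Chance gives such a gap in about 1 group of lines in 20 of this size, and 24 groups were looked at.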

How the results depend on the processing

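Of 23 alternatives, those with a test called 0 to 1 members. The 1 was Acta2, in poor against ESC lines when the 20 arrays were fitted with line as random block (difference −3.60), with the slide (−3.61) and with the replicate block (1 member, −3.60, limma adjusted p = 0.0097), and in good against ESC lines with the line as a random block (1 member, −3.48). No other alternative called a member. The deviations of same-numbered arrays correlated at −0.10 to 0.47 over 45 pairs of lines (median 0.15), over 0.1 in 29 and not in every pair, so the numbers were not taken to pair the samples. Acta2 and Tagln kept their signs against ESC lines under every alternative, with differences of −5.21 to −2.75 and −2.99 to −0.97 in poor lines. Signs changed in some settings for Tpm1, Tpm2 and Cald1 (Tpm1 in 10 of 23 for all iPSC lines), and for Cnn1 and Myl9 in 1 to 3 settings of a comparison. Within slide 1 the median member difference moved to −1.523 (poor), −2.358 (good), −1.767 (high) and −1.833 (all iPSC lines). It moved to −0.604 in good lines with normexp. With single lines left out it ran from −1.042 to −0.328 (poor), −1.737 to −0.859 (good), −1.247 to −0.084 (high, the last without Nanog-GFP SNEL#2), −0.252 to 0.256 (good and high against poor), −0.397 to 0.219 (SNEL against OSKM) and −1.251 to −0.538 (all iPSC lines). Counts of all genes called depended on the fit. With the line as a random block they were 39 (poor), 9 (good), 8 (high), 6 (good and high against poor), 81 (SNEL against OSKM) and 7 (all iPSC lines). With the slide they were 15 (poor), 4 (good), 4 (good and high against poor), 7 (SNEL against OSKM) and 1 (all iPSC lines). With the replicate block they were 25 (poor), 5 (good), 5 (good and high against poor), 46 (SNEL against OSKM) and 5 (all iPSC lines). SNEL against OSKM gave 2 genes, 1 with no filter, with 10 of 20 arrays above background or with the percentile over probes above background on all arrays, 7 with quantile normalization, and 0 with the mean of all probes. With single lines left out the counts ran from 0 to 2 (poor), 0 to 6 (good), 0 to 1 (high and good and high against poor), 0 to 338 (SNEL against OSKM, the last without Oct4-GFP SNEL#1) and 0 to 119 (all iPSC lines, the last without Oct4-GFP SNEL#1). The cause was not tested. Actg2 failed the stricter filter of 10 arrays, and it was well above background on 1 of 14 iPSC arrays.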
